A study of Mus musculus with 6 samples.

Results

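Genes of B lymphocyte precursors were followed in RNA of megakaryocyte-erythroid progenitors, the marrow cells that give rise to red cells and platelets. The 9 genes were Cd79a, Cd79b, Ighm, Vpreb1, Vpreb3, Pax5, Ebf1, Igll1 and Rag1, chosen by name from a table of 55487 genes. The cells came from wild-type C57BL/6 mice aged 8 weeks. Bulk RNA-seq was made from 3 control libraries and 3 libraries of mice fasted for 6 h, and the study asked how fasting acts on the making of red cells. The labels do not say whether a library is 1 mouse or a pool, so p-values measure the spread between these libraries only. The cells were sorted from bone marrow, and the labels do not give the surface markers of the sort. In all sentences that give a value for each library, values stand in the order of libraries 1, 2 and 3 of the group.

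B lymphocyte precursors are recognised by a receptor that forms in steps. The recombinase made by Rag1 and Rag2 joins variable, diversity and joining segments of the heavy chain locus, and the mu heavy chain, whose constant part is Ighm, then pairs with a surrogate light chain made of the Vpreb and Igll1 proteins. This pre-B receptor signals through the Cd79a and Cd79b chains, and the transcription factors Ebf1 and Pax5 drive and maintain the programme. The Ighm constant region can also be transcribed from an unrearranged locus, so its RNA alone does not mark a rearranged heavy chain.

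Sequence bears on the counts of Vpreb1 and, less so, of Igll1. The coding sequences of Vpreb1 and its near-copy Vpreb2 on the same chromosome are both 426 bases long. They align without a gap at 417 identical bases (97.9%), with 9 mismatches, and other exonic bases were not compared. A coding read that covers none of these mismatches cannot tell the genes apart. How such reads were assigned is not given in the sources used here. Their first 120 coding bases (GENCODE M21 transcripts, GRCm38, Vpreb1 on the minus and Vpreb2 on the plus strand of chromosome 16) are shown for that reason, with the 3 mismatches in capitals.
Vpreb1: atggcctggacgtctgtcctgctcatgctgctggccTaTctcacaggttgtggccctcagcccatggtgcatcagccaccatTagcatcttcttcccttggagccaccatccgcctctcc
Vpreb2: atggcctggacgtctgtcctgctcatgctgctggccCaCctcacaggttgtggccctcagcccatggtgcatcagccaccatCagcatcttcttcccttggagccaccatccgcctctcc
Vpreb2 received 18, 44 and 18 counts in the controls and 36, 54 and 39 counts in the fasted group, against 212, 386 and 233 and 388, 416 and 106 counts for Vpreb1. The Vpreb1 values are uncertain by whatever was lost or shared with this copy. Igll1 shares 81.1% of 312 aligned coding bases with the lambda constant gene Iglc1, a weaker likeness.

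Expression was first set against a background measured in the same libraries. The 1466 protein-coding odorant and vomeronasal receptor genes, which are used by sensory neurons of the nose and are held to be silent in blood cells, received 8.99, 13.1 and 14.7 counts per kilobase of exon in the controls and 14.2, 16.01 and 14.8 in the fasted group. Total counts were 22445970 to 30246110 in the controls and 12797144 to 18225191 in the fasted group, so the background weighed more in the fasted ones, at 0.878 to 1.11 CPM per kilobase (counts scaled to the library total) against 0.297 to 0.655 CPM per kilobase in the controls. A level relative to background carries this difference between the groups, and it is used here to ask which genes were present, not to compare the groups.

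Of the 9 genes, 6 had a mean level of at least 5 times the background, the line used here to call a gene present, and 3 did not. The mean level per kilobase was 169 times the background for Ighm, 34.1 times for Cd79b, 17.7 times for Vpreb1, 15.4 times for Cd79a, 14.9 times for Vpreb3 and 11.2 times for Igll1. Rag1 stood at 2.72 times, Ebf1 at 2.70 times and Pax5 at 1.03 times the background. The genes nearest the line were Igll1 above it, with 4.43 times in fasted library 3, and Rag1 below it, with 4.60 times in control library 1. Ighm had the highest and Cd79b the second highest level per kilobase of the 9 genes in 6 of 6 libraries, and Pax5 had the lowest in 6 of 6. The 4 genes between 11.2 and 17.7 times changed places between libraries, and their order is within their spread of 3.75 to 9.39 times the background (SD within a group, n = 3).

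**Figure D1:**
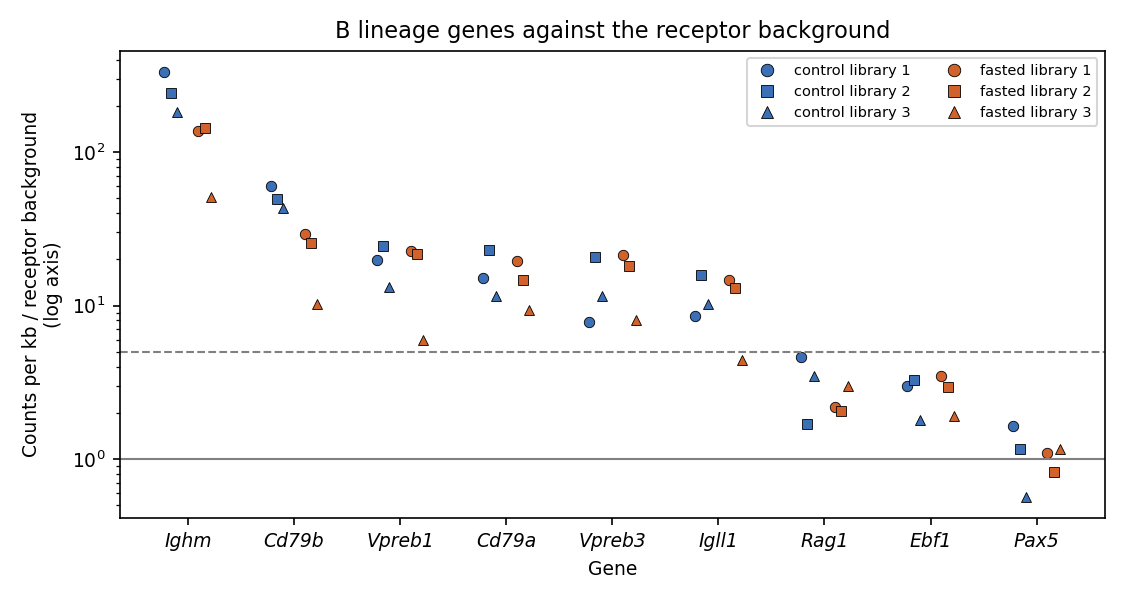
Level of each B lineage gene in each library, as counts per kilobase of exon divided by the receptor background of the same library, on a log axis. The solid line is the background itself and the dashed line is 5 times the background. Ighm, Cd79b, Vpreb1, Cd79a, Vpreb3 and Igll1 have mean levels above the dashed line, and Pax5 scatters around the solid line.

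The signalling chains of the receptor differed from each other in how they ran across the libraries. Cd79a (ENSMUSG00000003379.7, chromosome 7, 24897381 to 24902197, plus strand, GRCm38) had 197, 437 and 245 counts in the controls and 407, 344 and 201 counts in the fasted group. After TMM scaling, the edgeR factor that sets libraries to a common size, these were 8.64, 19.5 and 11.7 CPM in the controls and 26.2, 18.0 and 10.5 CPM in the fasted group. The groups overlapped, with fasted library 3 below 2 of the control libraries. The means were 13.3 CPM ± 5.61 in the controls and 18.2 CPM ± 7.83 in the fasted group (SD, n = 3 each), and edgeR gave a log2 fold change of 0.45 (SE 0.34, adjusted p 0.364). Cd79b (ENSMUSG00000040592.11, chromosome 11, 106311341 to 106314762, minus strand) had 771, 926 and 902 counts in the controls and 591, 585 and 218 counts in the fasted group. That is 33.8, 41.4 and 43.0 CPM in the controls and 38.0, 30.6 and 11.4 CPM in the fasted group, with fasted library 3 far below the other 5. For Cd79b edgeR gave -0.56 (SE 0.33, adjusted p 0.253) on the log2 scale.

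Ighm (ENSMUSG00000076617.9, chromosome 12, 113418558 to 113422730, minus strand) was the most abundant member. It had 5630, 6047 and 5064 counts in the controls and 3660, 4320 and 1427 counts in the fasted group, or 247, 270 and 241 CPM against 235, 226 and 74.7 CPM. Here the groups did not overlap, but fasted libraries 1 and 2 lay just under the lowest control library and fasted library 3 at less than any other. On the log2 scale edgeR gave -0.50 (SE 0.32, adjusted p 0.301). Together the 9 genes took 0.0255% of all counts in control library 1 (95% Wilson interval 0.0249 to 0.0260%), the lowest of the control group, and 0.0349% and 0.0338% in control libraries 2 and 3. They took 0.0514%, 0.0393% and 0.0196% in the fasted group, so the highest and the lowest share of the 6 libraries were both in the fasted group. Such intervals cover counting error only, because amplified reads without molecular identifiers are not independent molecules. In bulk RNA, fewer cells of a type and less RNA per cell cannot be told apart.

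The surrogate light chain genes ran alike from library to library, with low values in control library 1 and fasted library 3. Vpreb1 (ENSMUSG00000059305.12, chromosome 16, 16868403 to 16870843, minus strand) had 9.30, 17.2 and 11.1 CPM in the controls and 24.9, 21.8 and 5.55 CPM in the fasted group. Fasted libraries 1 and 2 exceeded every control library, and fasted library 3 lay below every one of them. Igll1 (ENSMUSG00000075370.12, chromosome 16, 16860671 to 16863985, minus strand), which encodes the constant-like part of the surrogate chain, had 167, 447 and 324 counts in the controls and 452, 451 and 142 counts in the fasted group, or 7.33, 20.0 and 15.5 CPM against 29.1, 23.6 and 7.43 CPM. Its fasted library 3 was at the level of control library 1. Vpreb3 (ENSMUSG00000000903.3, chromosome 10, 75943057 to 75949657, plus strand), a relative of Vpreb1 that acts in the assembly of the receptor, had 60, 232 and 146 counts in the controls and 259, 250 and 103 counts in the fasted group, or 2.63, 10.4 and 6.96 CPM against 16.7, 13.1 and 5.39 CPM. The log2 fold changes were 0.47 (SE 0.45) for Vpreb1, 0.49 (SE 0.48) for Igll1 and 0.81 (SE 0.47) for Vpreb3, with edgeR adjusted p of 0.492, 0.508 and 0.264. Vpreb1 shares 108 of its 1199 exonic bases with Top3b on the other strand, and whether counting used strand is not given in the sources used here.

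The regulators and the recombinase were at or near the background. Pax5 (ENSMUSG00000014030.15, chromosome 4, 44524757 to 44710487, minus strand), which commits cells to the B lineage, had 131, 135 and 74 counts over 8853 exonic bases in the controls and 138, 116 and 153 counts in the fasted group. At 0.569 to 1.65 times the background in single libraries, it was not detectable above the counts that silent genes receive. Ebf1 (ENSMUSG00000057098.14, chromosome 11, 44617317 to 45008091, plus strand), the factor that starts the programme, had 261, 418 and 259 counts in the controls and 479, 462 and 274 counts in the fasted group, or 1.81 to 3.45 times the background. Rag1 (ENSMUSG00000061311.6, chromosome 2, 101638282 to 101649501, minus strand) had 273, 146 and 337 counts in the controls and 206, 216 and 292 counts in the fasted group, or 1.68 to 4.60 times the background. Log2 fold changes were 0.58 (SE 0.32) for Pax5, 0.70 (SE 0.29) for Ebf1 and 0.20 (SE 0.31) for Rag1, with edgeR adjusted p of 0.226, 0.125 and 0.659. Over the 25867 tested genes under the 5-fold line the median was 0.53 in that fit, below the values of Pax5 and Ebf1 and above that of Rag1. The part of the background in these values was not tested. Pax5 shares 636 exonic bases with the unnamed transcript 5730488B01Rik and 125 with Gm12462, both on the other strand, and Rag1 shares 80 with B230118H07Rik on its own strand.

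None of the 9 genes passed the test of fasted against control. All 9 were among the 36508 genes tested, of which edgeR's quasi-likelihood test called 4.97% at a Benjamini-Hochberg adjusted p under 0.05 (1.15% higher and 3.82% lower in fasted). Only Ebf1 of the 9 had an unadjusted p under 0.05 (0.0249), as 28.6% of all tested genes had, and DESeq2 and limma-voom also called 0 of the 9. Groups stood fully apart for 2 of the 9 genes, Ighm lower and Pax5 higher in the fasted group, against 34.9% of all tested genes. The median of the 9 log2 fold changes was 0.47, beside 0.32 for the whole set of 36508. The split of calls over all genes depended on scaling, with 420 higher and 1393 lower under TMM factors but 4224 higher and 299 lower under library totals alone. A second edgeR fit, scaled and tested on the 10641 present genes only, called 0 genes (0%), with 2111 (19.8%) at an unadjusted p under 0.05. In that fit the 6 present genes had log2 fold changes of 1.26 (SE 0.57) for Vpreb3, 0.94 (SE 0.51) for Vpreb1, 0.93 (SE 0.41) for Cd79a, 0.93 (SE 0.55) for Igll1, -0.02 (SE 0.38) for Ighm and -0.10 (SE 0.38) for Cd79b, with edgeR adjusted p from 0.246 to 0.978. In its CPM the groups overlapped for all 6, so 0 of 6 were apart against 27.3% of the 10641 genes, with a median of the 6 log2 fold changes of 0.93 beside 0.02 for all 10641. Cd79a alone of the 6 had an unadjusted p under 0.05 there (0.0476). The change of scaling moved the 6 genes up by 0.44 to 0.48, near the median shift of 0.52 over all 10641 genes. Single libraries weighed on these values in both directions. Without fasted library 3 the log2 fold change of Vpreb1 was 0.87 in place of 0.47 over all tested genes, and that of Cd79b was -0.23 in place of -0.56. Without fasted library 1, Vpreb1 had 0.11, Igll1 0.11 in place of 0.49 and Cd79a 0.09 in place of 0.45, and Cd79b had -0.92. For Vpreb3, 0.81 became 0.42 without control library 1 and 1.27 without control library 2. edgeR called 0 of the 9 in each of the 6 fits that left out 1 library.

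**Figure D2:**
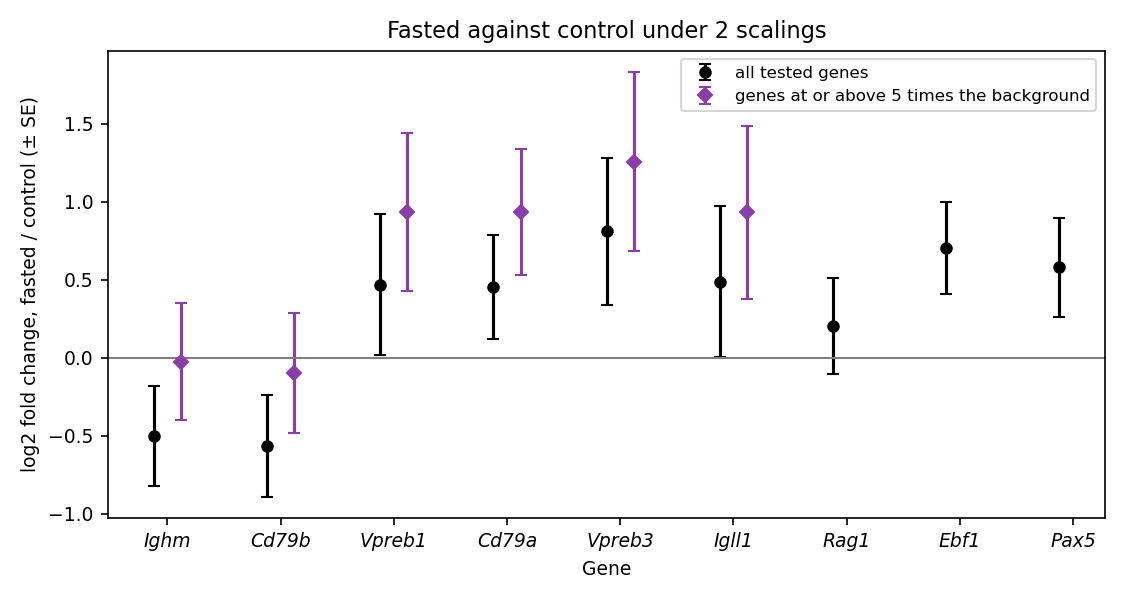
Log2 fold change of fasted over control libraries with its SE for the 9 genes, from edgeR over all tested genes (black circles) and over genes at or over the 5-fold line only (purple diamonds; Rag1, Ebf1 and Pax5 did not enter). Under both scalings Ighm and Cd79b have the lowest values, and none of the 9 passed an adjusted p of 0.05.

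Ratios between genes of the same library do not depend on the scaling, and they set 2 of the 6 present genes apart from the other 4. Cd79b and Ighm kept a near-constant ratio to each other. The ratio of Cd79b to Ighm in counts per kilobase was 0.180, 0.202 and 0.235 in the controls and 0.213, 0.178 and 0.201 in the fasted group, with means of 0.206 ± 0.0273 and 0.198 ± 0.0175 (SD, n = 3 each). Cd79a relative to Cd79b was 0.251, 0.464 and 0.267 in the controls and 0.676, 0.578 and 0.906 in the fasted group, higher in every fasted library. Cd79b relative to Vpreb3 was 7.71, 2.40 and 3.71 in the controls and 1.37, 1.40 and 1.27 in the fasted group, and the 3 fasted values lay close together. Ighm relative to Vpreb1 was 16.9, 9.96 and 13.8 in the controls and 6.00, 6.60 and 8.56 in the fasted group. Ighm relative to Igll1 was 38.7, 15.5 and 17.9 in the controls and 9.29, 10.99 and 11.5 in the fasted group. So Ighm and Cd79b were lower relative to the surrogate light chain genes and Cd79a in the fasted group, fasted library 3 included.

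Of the 15 pairs among the 6 present genes, the groups did not overlap in 9. These were the 8 pairs that join Cd79b or Ighm with Cd79a, Vpreb1, Vpreb3 or Igll1, and the pair Vpreb3 and Igll1. Over all pairs of the 10641 genes at or over the 5-fold line, the groups did not overlap in 26.7%. The 15 pairs share genes and are not independent, the ratios were looked at after the values were seen, and 3 against 3 libraries allow no exact test below p = 0.1, so no test is given. With the background subtracted from both genes the count was again 9 of 15. A ratio shows unequal change only and does not say which gene of a pair moved.

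**Figure D3:**
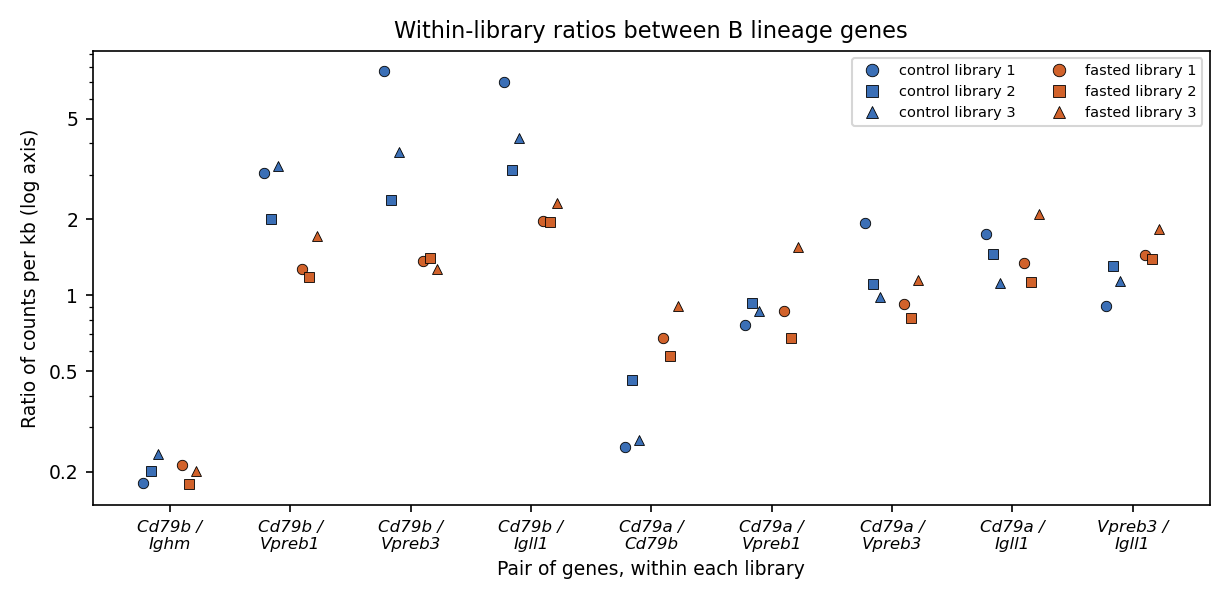
Ratios of counts per kilobase between B lineage genes within each library, on a log axis. Cd79b to Ighm is alike in all 6 libraries (0.178 to 0.235), Cd79b to Vpreb1, Vpreb3 and Igll1 is lower and Cd79a to Cd79b higher in every fasted library, the ratios of Cd79a to Vpreb1, Vpreb3 and Igll1 overlap, and Vpreb3 to Igll1 is higher in every fasted library (1.40 to 1.83 against 0.905 to 1.31).

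The variable segments of the immunoglobulin loci gave a readout that the choice of genes did not use. The 113 heavy chain variable genes together stood at 2.04 to 2.47 times the background and their 81 pseudogenes at 1.503 to 1.88 times. Taken singly, 14 of the 113 and 5 of the 81 were at or over the 5-fold line, as were 10927 of all 55487 genes. Receptor genes and pseudogenes of similar length (104 of 250 to 600 bases) stood at 1.34 to 1.53 times, so short genes ran somewhat above the overall rate. For the kappa light chain, 102 variable genes together stood at 2.77 to 3.24 times and 74 pseudogenes at 1.71 to 1.98 times. Of these, 14 of the 102 and 5 of the 74 were at or over the 5-fold line. The constant genes Ighm and Igkc were far higher in most libraries, but not all constant genes were. Of 8 heavy chain constant genes 3 were at or over the 5-fold line, Ighd stood at 3.55 times the background, and the 4 lambda constant genes together stood at 1.09 to 5.53 times. Igkc had 73, 369 and 512 counts in the controls and 295, 114 and 20 counts in the fasted group. Its levels were 15.3, 52.8 and 65.5 times the background in the controls and 39.0, 13.4 and 2.54 times in the fasted group. Its lowest value, in fasted library 3, was near the level of the variable genes. The 4 heavy chain joining segments, 255 bases in all, had 89, 81 and 41 counts in the controls and 46, 62 and 26 counts in the fasted group, or 10.9 to 38.8 and 6.89 to 15.2 times the background. Ighm was at 183 to 332 times the background in the controls and 51.1 to 143 times in the fasted group. Levels given by group here carry the difference in background and do not compare the groups. In all 6 libraries Ighm stood far above the pooled level of the 113 heavy chain variable genes. That pooled level spreads the counts over all 113 genes, while a rearranged heavy chain carries a single variable gene. These levels are thus not alike in kind, and whether the Ighm RNA was rearranged was not tested.

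**Figure D4:**
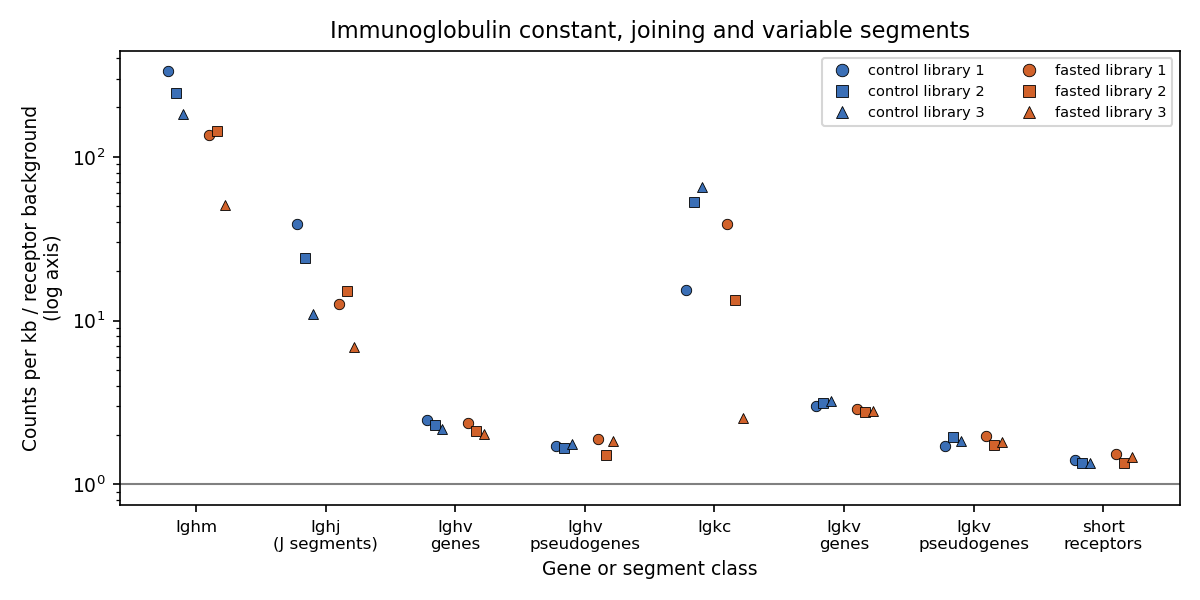
Immunoglobulin segments in each library as counts per kilobase over the receptor background, on a log axis, with the background as a line. Ighm lies at 51.1 to 332 times the background. Variable genes and pseudogenes of both loci, each pooled over all genes of the class, lie between 1.503 and 3.24 times. Short receptor genes lie at 1.34 to 1.53 times.

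The promoters shown are that of the signalling chain Cd79a and that of Vpreb3, which had the highest fold change of the 6 present genes. RefSeq windows from 250 bases before to 50 after a start (GRCm38.p6) were at hand for 7 of the 9 genes, not for Cd79b and Ighm. Capitals mark E-boxes (CANNTG, the site type of the E2A factors) and, in Vpreb3, the octamer ATGCAAAT read on the other strand.
Cd79a, chr7:24897247-24897546, plus strand: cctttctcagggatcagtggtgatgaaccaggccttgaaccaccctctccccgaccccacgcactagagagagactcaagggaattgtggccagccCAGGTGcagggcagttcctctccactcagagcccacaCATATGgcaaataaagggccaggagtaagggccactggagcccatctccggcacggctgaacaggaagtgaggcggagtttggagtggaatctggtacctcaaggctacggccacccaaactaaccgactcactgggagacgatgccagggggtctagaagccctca
Vpreb3, chr10:75948050-75948349, plus strand: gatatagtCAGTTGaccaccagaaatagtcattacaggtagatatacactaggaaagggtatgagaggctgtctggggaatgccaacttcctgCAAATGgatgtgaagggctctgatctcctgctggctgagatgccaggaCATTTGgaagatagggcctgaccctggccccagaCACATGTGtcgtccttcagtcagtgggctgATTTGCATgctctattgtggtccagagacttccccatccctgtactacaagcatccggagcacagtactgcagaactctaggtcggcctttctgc
The Vpreb3 window held 1 octamer, beginning 45 bases before the start, where immunoglobulin promoters are known to carry this motif, and 5 E-boxes, of which 2 overlap each other. The octamer was in 1.74% of all 32851 windows. All 7 genes had an E-box in a window, but so had 72.3% of all windows. On both strands, an exact match to TCCCNNGGG, a core form of the Ebf1 site, was in no window of the 7 genes (6.56% of all windows). Nor was an exact TATAAA (13.6% of all windows). Sites that differ from these letters were not searched for, so the windows may still hold an Ebf1 site.

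Other genes of the B lineage were taken from 5 lists of 61 genes, of which 59 were tested. edgeR called 5 of them, all lower in the fasted group, where 3.82% of all tested genes were called lower. limma-voom called 5, all lower, where it called 1393 of the 36508 tested genes lower. DESeq2 called 12, all lower, where it called 5267 (16.8%) of all genes to which it gave an adjusted p, 4865 of them lower. Of the lists' genes, 29 of 61 lay below 5 times the background. DESeq2 called 5 of the receptor and signalling genes, 4 of the transcription factors and 2 of the recombination and repair genes. The values that follow are edgeR's. Of 18 receptor and signalling genes 17 were tested, and Dapp1, Plcg2 and Btk, which act downstream of the receptor but are shared with myeloid cells, megakaryocytes or both, were called lower. Dapp1 had 506 CPM ± 154 in the controls and 237 CPM ± 53.0 after fasting (SD, n = 3 each; log2 fold change -1.09, SE 0.25, edgeR adjusted p 0.0333). Plcg2 had -1.07 (SE 0.26, edgeR adjusted p 0.0359) and Btk -0.85 (SE 0.24, edgeR adjusted p 0.0456). Among 16 transcription factors 1 was called lower, the progenitor factor Myb (-0.88, SE 0.23, edgeR adjusted p 0.0408). Spi1, Ikzf1 and Tcf3, the factors with the highest levels per length, had -0.88, -0.52 and -0.07 and did not pass in edgeR (adjusted p 0.113, 0.131 and 0.845). Of 9 recombination and repair genes 1 was called lower, the chromatin protein gene Hmgb1 (-0.92, SE 0.24, edgeR adjusted p 0.0408). These 5 genes kept a negative sign under 7 scalings and tools, but the calls depended on which library was left out. Of the 5, 0 were called by edgeR without control library 2 (adjusted p 0.0586 to 0.111), without fasted library 1 (0.0703 to 0.194) or without fasted library 3 (0.181 to 0.190). Over all genes, the 1813 calls fell to 190, 105 and 7 in the same fits. The log2 fold changes of the 5 genes stayed between -1.27 and -0.76 there. Without control library 1, 2 of the 5 were called. All 5 were called without control library 3 or without fasted library 2, where 5379 and 1837 of all genes were called. In the fit of present genes 0 of the 32 listed genes that entered were called, 12 of them at an unadjusted p under 0.05. Xrcc6, a subunit of the Ku repair complex, had -0.75 (SE 0.24, edgeR adjusted p 0.0580). The granulocyte and monocyte marker sums given further on were lower in the fasted group too under TMM factors over all tested genes, and their part in these 5 calls was not tested.

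Genes that mark the step before B commitment were present. Dntt, which encodes the enzyme that adds bases at recombination joints, had 2650, 3068 and 2227 counts in the controls and 2565, 2363 and 1588 counts in the fasted group. It stood at a mean of 77.1 times the background, and edgeR gave 0.05 (SE 0.25, adjusted p 0.907) on the log2 scale. Flt3, the receptor of multipotent and lymphoid progenitors, stood at 44.8 times the background (log2 fold change 0.29, SE 0.26). Rag2, at 2.49 times, and the interleukin 7 receptor gene Il7r, at 3.17 times, did not reach the 5-fold line. Of the 12 genes of lymphoid progenitor and B stage surface proteins edgeR and limma-voom called 0 and DESeq2 called 1, with 4 at an unadjusted p under 0.05 in edgeR, against 28.6% of all tested genes. Cd24a and Ly6d, listed here as surface markers of early B stages, stood at 167 and 15.2 times the background. They had log2 fold changes of -0.07 and -0.28, and which cells gave their counts was not tested. Of 6 plasma cell genes, 5 were tested and 0 called by edgeR, DESeq2 or limma-voom, with 3 of the 5 at an unadjusted p under 0.05 in edgeR, against the same 28.6%. Xbp1, the secretory factor, had -0.69 (SE 0.28), Tnfrsf17, a receptor of plasma cell survival, 0.86 (SE 0.36) and the proteoglycan gene Sdc1 0.17 (SE 0.27). The mature B gene Ms4a1 stood at 1.38 times the background, Cr2 at 1.29 times and Cd22 at 1.51 times.

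Markers of other cells were summed by list in the same libraries. The 7 NK cell genes stood at 1.24 to 1.81 times the background together, with 0 of 7 at or over the 5-fold line. The 14 T cell genes stood at 2.31 to 4.42 times, with 2 of 14 at or over the 5-fold line. The 12 genes of megakaryocyte-erythroid progenitors summed to 4286 to 9915 CPM in the controls and 4492 to 6228 CPM in the fasted group, so the markers of the labelled cell type were present, with 11 of 12 at or over the 5-fold line. The 13 granulocyte and monocyte genes, such as Mpo and Elane, were all at or over the 5-fold line and summed to 4510, 13069 and 18023 CPM in the controls and to 3409, 2617 and 1350 CPM in the fasted group. The 8 genes of plasmacytoid dendritic cells, which share Dntt and Igh transcripts with B precursors, summed to 371 to 540 CPM in the controls and 196 to 308 CPM in the fasted group. No listed gene was at 0 in any library. In the dendritic cell list, Bst2, Ly6c2, Tcf4 and Runx2, which other cells use too, carried most of the sum. The more specific Siglech, Ccr9 and Klk1 stood at 2.73, 2.23 and 3.05 times the background. Cox6a2, the remaining gene of the list, stood at 7.37 times, and 5 of the 8 genes were at or over the 5-fold line. Of the 8 genes edgeR called Bst2 lower (log2 fold change -1.19, adjusted p 0.0277) and Ccr9 higher (0.98, adjusted p 0.0408). With TMM factors over all tested genes, every fasted library was below every control library in the granulocyte and the dendritic cell sums. Mpo alone gave 3176, 7395 and 10270 CPM of the granulocyte sum in the controls and 2022, 1344 and 398 CPM in the fasted group. Taken singly, 5 of the 13 granulocyte and monocyte genes stood fully apart between the groups, against 34.9% of all tested genes. S100a8, S100a9, Ltf, Ngp and Camp were higher in every fasted library than in control library 1. Scaled on the present genes, both sums overlapped, at 3664 to 19101 CPM in the controls and 1944 to 4607 CPM in the fasted group for the granulocyte genes and at 301 to 572 and 282 to 416 CPM for the dendritic cell genes. Fasted library 3, lowest in both sums under TMM factors, was also lowest for Ighm and Cd79b. The part of these cells in the values of the 9 genes was not tested.

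A mean course over the 6 libraries was taken from the centred log2 CPM of the 6 present genes, scaled on the present genes. The genes differed around it, from -0.15 for Ighm to -1.67 for Vpreb3 in control library 1 and from -0.11 for Cd79a to -1.05 for Ighm in fasted library 3. The mean was -0.92, 0.16 and -0.07 in the controls and 0.94, 0.52 and -0.63 in the fasted group. Among the other 10635 genes, the 10 with the highest Pearson correlation to this course were Lpxn, Diaph1, Vps37c, Cntrl, Ifi27l2a, Gm22459, Abi2, Ebi3, Ppp6r3 and Cyth1 (r from 0.964 to 0.989 over 6 libraries that also share depth and background). None of the 10 was in the 5 B lineage lists. Of the 32 genes of those lists in this comparison, Dntt alone reached an r of at least 0.9 (r = 0.910), against 109 of all 10635 genes.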

How the data were processed

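Per the labels' protocol, mRNA was purified on oligo(dT) beads. That protocol also speaks of ground tissue. The authors deposited raw counts per gene with exonic lengths; per the submitters' processing notes the tools were HISAT2 2.2.1 and featureCounts 2.0.1 with GRCm38, and their settings are not given in the sources used here. Columns were matched to libraries by description. Of 55487 identifiers, 55227 matched GENCODE M21, from which names and coordinates came.

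Genes were kept with filterByExpr and fitted with edgeR 4.0.16 (R 4.3.3; TMM, robust estimateDisp and glmQLFit, group as the only term), adjusted over all 36508 genes. SE is the log2 fold change over the root of F. A gene counted as present if its count, averaged over libraries, was at least 5 times what the receptor rate gives for its length. Alternatives were DESeq2 1.42.0, limma-voom (limma 3.58.1), other scalings, filters, background subtraction, a replicate block and leaving out each library. On simulated counts for this comparison (36871 genes tested, 200 changed 4-fold), 181 changed genes were called, all with the right sign, beside 8 unchanged genes. The simulated libraries shared the same mean profile and an equal spread for all genes, without the background difference between the groups. Genes with low counts were not among those changed. The simulation therefore does not show how well smaller changes or low genes would be called in these data. Coding sequences were aligned with Biopython 1.88. The pattern likeness used log2(CPM + 1). Named genes were the 9, in each B lineage list the called genes and the 3 with the highest level per length, and the 10 genes most alike in course. Other genes of the lists were named after their values were seen. The members and lists were chosen with earlier results of these data known.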

Additional observations from a re-analysis of the deposited data

How the results depend on the processing

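The count of B lineage genes called was 0 of 9 in all fits but 2: it was 1 with library totals alone (Ebf1) and 2 with TMM factors of the present genes, those at 5 times the background or more (Ebf1 and Pax5), both higher, and both genes lie under that line. Over all genes the 1813 calls became 2973 with RLE factors, 4523 with library totals, 5244 with TMM factors of the present genes, 2849 without a filter on low counts, 2747 at a mean CPM of at least 1 and 5267 with DESeq2, which gives no adjusted p for some low genes. They became 0 in the fit of present genes (2111 at an unadjusted p under 0.05), 0 with the line at 10 times (916) and 0 after background subtraction (1716); the cause was not tested. Leaving out 1 library gave 7 (without fasted library 3) to 5379 (without control library 3) calls over all genes and 0 to 3 in the fit of genes at or over the 5-fold line.

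Same-numbered libraries did not deviate together (correlations of deviations across genes -0.18, 0.14 and -0.37 for numbers 1, 2 and 3), so the numbers were not taken as pairs. With the replicate number as a block, 146 genes over all and 0 in the fit of genes at or over the 5-fold line were called, and 0 of the 9 in both; the 5 called genes of the B lineage lists had adjusted p of 0.0505 to 0.0792 with the block.

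Of 186 recomputed fold changes of the 9 genes, 175 kept their direction and side of the threshold, 3 passed it and 8 changed sign. Ighm changed sign to 0.054 with the line at 10 times and to 0.051 after background subtraction, and, in the fit of present genes, to 0.031 without control library 3 and 0.32 without fasted library 3 (range without 1 library there -0.32 to 0.32). Cd79b changed to 0.069 and 0.24 in the same fits (range -0.48 to 0.24). Rag1 changed to -0.018 with DESeq2 and to -0.093 without control library 2 (range -0.09 to 0.51 without 1 library). The same count of 6 genes was at or over the 5-fold line under both other estimates of it. Over all tested genes, leaving out 1 library gave ranges of 0.09 to 0.83 for Cd79a, 0.11 to 0.87 for Vpreb1, 0.42 to 1.27 for Vpreb3, 0.11 to 0.85 for Igll1, -0.92 to -0.23 for Cd79b and -0.78 to -0.15 for Ighm, with no change of sign. Pax5 was not detectable above the background at this depth.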

Other observations

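Among the T cell genes, the 2 at or over the 5-fold line were Trbc1 and Lck, named here after their values were seen. Trbc1, a constant gene of the T cell receptor beta locus, had 274, 238 and 103 counts in the controls and 175, 241 and 117 counts in the fasted group, a mean of 18.7 times the background. Trac, the constant gene of the alpha locus, stood at 3.20 times. Lck, a kinase of T cell receptor signalling, stood at 9.73 times. Both Trbc1 and Lck had edgeR adjusted p above the threshold (0.828 and 0.599).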
